A study of Mus with 6 samples.

Results

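Complement is a cascade of plasma and tissue proteins that tags microbes, debris and, in the brain, synapses. C1q, a bundle of A, B and C chains, starts the classical pathway, C4 and C3 are cleaved in turn and stick to the tagged surface, their small fragments act on receptors such as C3ar1 and C5ar1, and Serping1 encodes the C1 inhibitor. In the brain the C1q chains come mainly from microglia, whereas C4 and the C1 inhibitor also come from other cells, astrocytes and vascular cells among them.

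The 8 genes C1qa, C1qb, C1qc, C3, C4b, C3ar1, C5ar1 and Serping1 were taken by name, as the components and receptors of this cascade, from a hippocampal array study of forced swim stress (FSS). Each gene was represented by an array row that carries exactly 1 gene symbol, and 7 of the 8 had 1 such row each among the 21789 rows tested. C3 was not analysed here. The groups were 3 control mice and 3 FSS mice, all of the inbred strain C57BL/6JJmsSlc, male by the methods and 10 to 11 weeks old by the labels, with no allele or agent other than the swim. By the methods, more mice were run on arrays than were used for the volcano plot of this comparison, and those used were picked at random. FSS mice swam in water with no way out for 11 min on each of 5 consecutive days, control mice did not, and the hippocampus was removed after a tail suspension test that followed the swims. RNA of each mouse was hybridised to 1 single-colour array, so the spread within a group joins that between mice with that of dissection, labelling and array. The number of arrays limits the precision.

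Values are log2 levels made by robust multi-array averaging (RMA), so a difference of 1 is a doubling. Each gene has its own probes, so the levels of different genes do not give their relative amounts of RNA. Differences between genes were taken within a mouse and then compared between the groups. A level placed against the median of all rows or against its list describes array signal only. The groups were compared with limma, a linear model fitted to every row whose variance is moderated with that of the other rows, and a gene was called at an unadjusted p under 0.05. As a check of the labelled tissue, the rows of all 12 hippocampal neuron markers had mean levels above the median of all rows. This does not tell hippocampus from other brain tissue. So did 12 of 12 astrocyte markers, 9 of 9 oligodendrocyte markers, 15 of 17 microglia markers and 9 of 20 reactive astrocyte genes. The count was 7 of 10 for meningeal fibroblast, 7 of 9 for endothelial and 2 of 9 for choroid plexus markers. It was 0 of 10 for border macrophage markers, 0 of 8 for blood leukocyte markers and 0 of 4 for red cell and plasma genes. Since a level depends on the probes of its row, these counts do not rank the cell types. The arrays of control mouse 1, control mouse 2 and FSS mouse 2 had a slightly narrower spread of values (SD 2.22 to 2.23) than the other 3 arrays (2.26 to 2.27).

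None of the 7 complement genes measured was called higher or lower in FSS mice, against 2.49% of all rows called higher and 2.66% called lower. Of the 7 log2 fold changes, 5 lay above 0 and 2 below, with a median of 0.091, beside a median of 0.0039 over 19938 genes. The 95% intervals of all 7, taken gene by gene, lay between 0.871-fold and 1.31-fold. The limma adjusted p was 0.943 or more for each. The methods' t-test also called 0 of the 7, and limma with a variance trend on intensity called 1, C1qc.

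**Figure D1:**
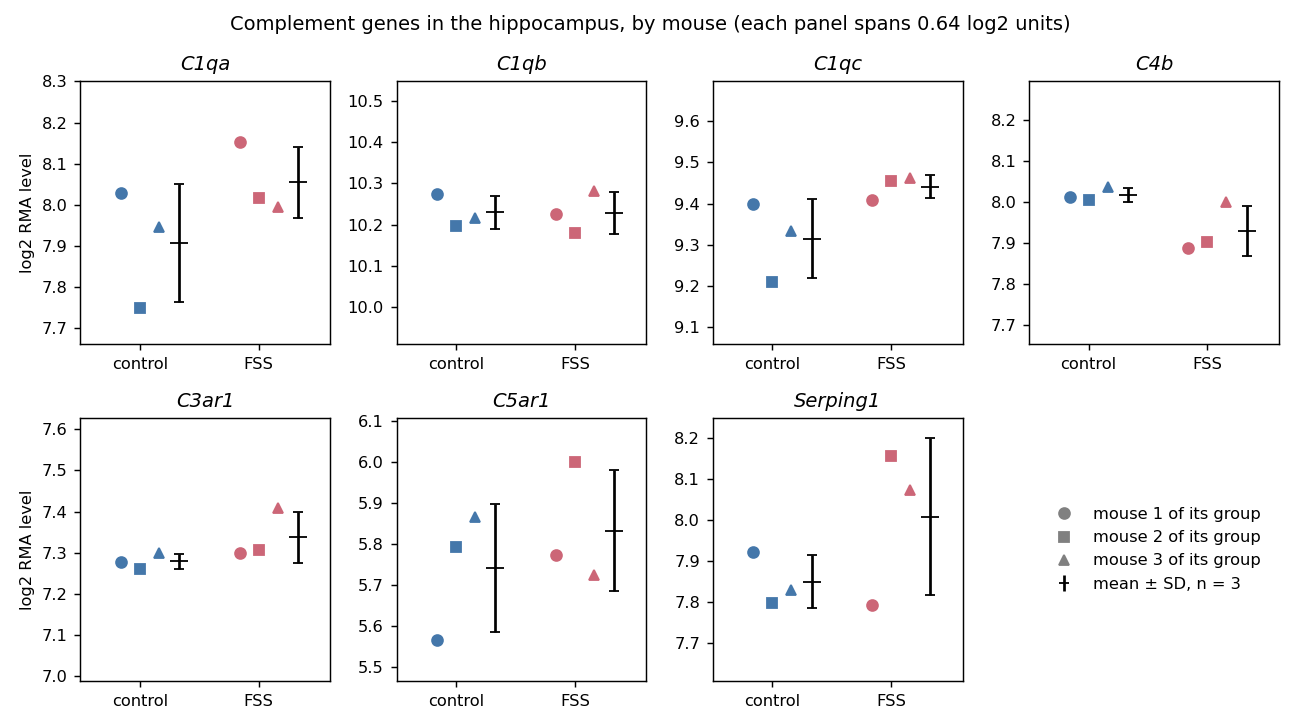
Log2 RMA level (y axis) of the 7 complement genes in each mouse of the control and FSS groups (x axis); the mean of each group is drawn with its SD over 3 mice, and every panel covers the same number of log2 units. C1qc lay higher and C4b lower in every FSS mouse than in every control mouse, C1qb covered the same levels in both groups, and Serping1 was spread widest within the FSS group.

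The genes of the 3 C1q chains lie side by side in RefSeq with 0 genes between neighbours. Their 95% intervals overlapped, and whether the chains differed from each other in their response was not tested. C1qc encodes the C chain. Its log2 level was 9.40, 9.21 and 9.33 in control mice 1 to 3 and 9.41, 9.45 and 9.46 in FSS mice 1 to 3. Every FSS mouse thus lay above every control mouse, although control mouse 1 and FSS mouse 1 almost touched. The means were 9.31 ± 0.096 (SD, n = 3) in control mice and 9.44 ± 0.029 (SD, n = 3) in FSS mice. FSS mice were higher by 0.13 on the log2 scale (standard error 0.058, limma p = 0.0673, exact two-sided permutation p = 0.1), which is 1.09-fold with a 95% interval of 0.992 to 1.20. A permutation p of 0.1 is the smallest that 3 mice against 3 allow.

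C1qa, which encodes the A chain, had log2 levels of 8.03, 7.75 and 7.95 in control mice and 8.15, 8.02 and 7.99 in FSS mice. FSS mouse 1 was the highest and control mouse 2 the lowest, and control mouse 1 lay above FSS mice 2 and 3, so the groups overlapped. The difference in log2 level was 0.15 (standard error 0.083, limma p = 0.122, exact permutation p = 0.3), or 1.11-fold with an interval of 0.965 to 1.27. For C1qb, the B chain, control mice had 10.27, 10.20 and 10.22 and FSS mice 10.23, 10.18 and 10.28. Both groups covered the same levels, and the difference was -0.0010 on the log2 scale (standard error 0.047, limma p = 0.983, exact permutation p = 1). This is a 0.999-fold difference, with an interval of 0.924 to 1.08.

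The level of C1qc minus that of C1qb was compared within each mouse, a comparison chosen after the values were seen and therefore given with no test. It was -0.87, -0.99 and -0.88 in control mice and -0.82, -0.73 and -0.82 in FSS mice. All 3 FSS mice lay above all 3 control mice, with a difference between the means of 0.13 on the log2 scale. For C1qa minus C1qb the groups overlapped, from -2.45 to -2.25 in control mice and from -2.29 to -2.07 in FSS mice. The differences of C1qa and C1qc between the groups were 0.020 apart on the log2 scale.

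C4b encodes complement C4, which C1s cleaves, and was the gene of the 7 with the lowest log2 fold change. Its log2 level was 8.01, 8.004 and 8.04 in control mice and 7.89, 7.90 and 8.0004 in FSS mice. Every FSS mouse lay below every control mouse, FSS mouse 3 by less than 0.01. The means were 8.02 ± 0.017 (SD, n = 3) and 7.93 ± 0.061 (SD, n = 3). On the log2 scale the difference was -0.087 (standard error 0.047, limma p = 0.106, exact permutation p = 0.1), or 0.941-fold with an interval of 0.871 to 1.02. C4a, its near-identical copy with 4 genes between them, is listed by RefSeq for C57BL/6J as a transcribed pseudogene. It was called lower, with levels of 5.67, 5.67 and 5.80 in control mice and 5.50, 5.56 and 5.57 in FSS mice (log2 fold change -0.17, standard error 0.053, limma p = 0.0156, adjusted p = 0.943, exact permutation p = 0.1). C4a was not called with an intensity trend, after a repeated quantile normalization (-0.14) or without FSS mouse 1. It lies below the median level of all rows, and whether its probes tell it from C4b is not given in the sources used here, so the values of both genes are uncertain.

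The receptors of the cleaved fragments differed little. C3ar1, the receptor of the C3a fragment, had log2 levels of 7.28, 7.26 and 7.30 in control mice and 7.30, 7.31 and 7.41 in FSS mice. Control mouse 3 and FSS mouse 1 were level, and FSS mouse 3 stood above the others. FSS mice were higher by 0.059 on the log2 scale (standard error 0.047, limma p = 0.253, exact permutation p = 0.2), or 1.04-fold with an interval of 0.964 to 1.13. C5ar1, the receptor of C5a, varied more, with 5.57, 5.79 and 5.87 in control mice and 5.77, 6.00 and 5.72 in FSS mice. The groups overlapped, and the log2 fold change of 0.091 (standard error 0.10, limma p = 0.405, exact permutation p = 0.6) corresponds to 1.06-fold with an interval of 0.900 to 1.26. Both receptors lie below the median level of all rows.

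Serping1 had the highest log2 fold change of the 7 genes and was the one in which FSS mice differed most among themselves. Control mice had levels of 7.92, 7.80 and 7.83 and FSS mice 7.79, 8.16 and 8.07. FSS mice 2 and 3 lay above all control mice, whereas FSS mouse 1 lay below them all. The means were 7.85 ± 0.064 (SD, n = 3) in control mice and 8.01 ± 0.19 (SD, n = 3) in FSS mice. Their difference of 0.16 (standard error 0.097, limma p = 0.148, exact permutation p = 0.4) is 1.12-fold with an interval of 0.951 to 1.31. Beside it, the mean log2 level of 10 meningeal fibroblast markers was 7.86 in FSS mouse 1, 8.17 in FSS mouse 2 and 7.93 in FSS mouse 3, against 7.82 to 7.93 in control mice. That of 9 endothelial markers was 8.22, 8.29 and 8.15 in FSS mice 1 to 3, against 8.06 to 8.21 in control mice. That of 9 oligodendrocyte markers was 10.69, 10.30 and 10.66 in FSS mice, against 10.44 to 10.56 in control mice. FSS mouse 2 was thus highest for Serping1 and for the meningeal and endothelial lists and lowest for the oligodendrocyte list. It was also highest for the border macrophage markers (5.89) and the reactive astrocyte genes (7.66). FSS mouse 3, also high for Serping1, lay within the range of the control mice for the meningeal and endothelial lists. Setting these lists beside Serping1 was not planned. The part of these lists in the result was not tested.

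Without overlap between the groups, 1 of the 7 genes was higher in FSS mice (C1qc) and 1 was lower (C4b), beside 6.02% and 4.25% of all rows. With so few genes, these counts say nothing about the set. Single mice decided some calls. Without control mouse 1, C1qa (log2 fold change 0.21) and C1qc (0.17) were called higher, without FSS mouse 1 Serping1 was (0.27), and without FSS mouse 3 C4b was called lower (-0.12).

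**Figure D2:**
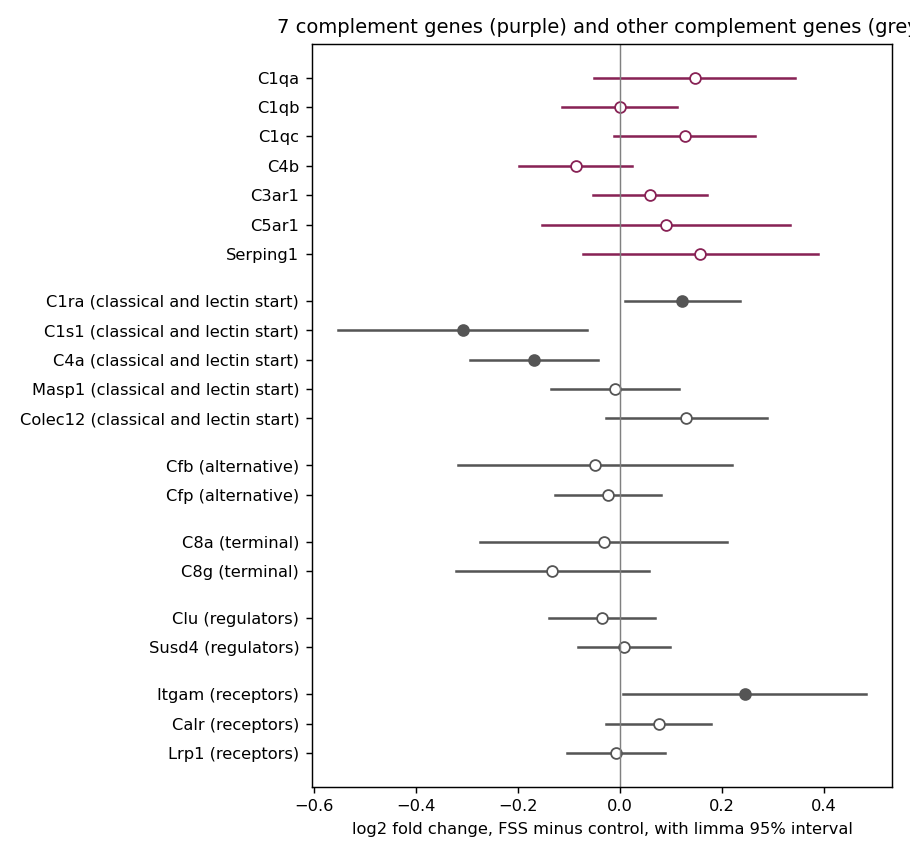
Difference in log2 level between FSS and control mice (x axis) with limma's 95% interval for the 7 complement genes and for other genes of the cascade (y axis, with the branch in brackets); filled points had an unadjusted p under 0.05. All 7 intervals in purple include 0. The grey genes are not all 54 measured but those with a limma unadjusted p under 0.05 or among the 2 highest in level of their list. The share of filled grey points is therefore not that of the cascade. Filled in grey are C1ra and Itgam, above 0, and C1s1 and C4a, below 0.

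The rest of the cascade was read from a list of 59 further complement genes, of which 54 were measured. Of these, 2 were called higher, 2 lower and 50 did not pass, with a median log2 fold change of -0.020. Over all rows, 2.49% were called higher and 2.66% lower, so counts this small are near the background and no result about the cascade. The 4 genes called were C1ra, C1s1 and C4a at the start of the classical pathway and Itgam among the receptors, each with a limma adjusted p of 0.943.

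At the start of the classical and lectin pathways, 1 of 15 measured genes was higher, 2 were lower and 12 did not pass. This is read beside 2.49% of all rows called higher and 2.66% called lower. So few calls in a short list are no result about these pathways. C1r and C1s are the proteases that C1q carries, and their genes lay on opposite sides. C1ra had log2 levels of 5.64, 5.67 and 5.56 in control mice and 5.72, 5.78 and 5.74 in FSS mice (log2 fold change 0.12, standard error 0.048, limma p = 0.0383, exact permutation p = 0.1). C1s1 had 4.13, 4.16 and 4.31 in control mice and 3.70, 4.08 and 3.89 in FSS mice (log2 fold change -0.31, standard error 0.10, limma p = 0.0202, exact permutation p = 0.1). The groups overlapped for neither gene. Both lie below the median level of all rows, and the mouse carries a close copy of each, C1rb and C1s2, from which their probes may not tell them apart. C1ra was not called with an intensity trend or without any 1 of the mice other than control mouse 2, and C1s1 was not called without control mouse 3 (-0.25), without FSS mouse 1 (-0.21) or by the methods' t-test. Of the genes with the highest levels on this list, Masp1, a protease of the lectin pathway, differed by -0.010 on the log2 scale (standard error 0.053), and the collectin Colec12 by 0.13 (standard error 0.066).

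Neither measured gene of the alternative pathway passed, with log2 fold changes of -0.049 for Cfb, which encodes factor B, and -0.024 for Cfp, which encodes properdin. None of the 7 genes of the terminal pathway passed either. Of these, 6 had log2 fold changes below 0 and 1 above (median -0.092), among them C8g at -0.13 (standard error 0.080) and C8a at -0.032 (standard error 0.10), and all 7 lie below the median level of all rows. These genes form the membrane attack complex.

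Of the 20 measured regulators, 10 had log2 fold changes above 0 and 10 below, and none passed. Clusterin, encoded by Clu, is a soluble inhibitor made in quantity by astrocytes, and its log2 fold change was -0.035 (standard error 0.044). Susd4, a membrane inhibitor of brain, had levels of 11.56 ± 0.0068 (SD, n = 3) in control mice and 11.57 ± 0.0079 (SD, n = 3) in FSS mice. Cr1l, the rodent inhibitor Crry, was named after its values were seen, as the regulator whose groups did not overlap. It had 7.03, 7.11 and 7.18 in control mice and 7.45, 7.21 and 7.22 in FSS mice (log2 fold change 0.19, standard error 0.078, limma p = 0.0503, exact permutation p = 0.1).

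Of 10 receptors other than C3ar1 and C5ar1, 1 was higher and none was lower, beside 2.49% and 2.66% of all rows. In a list this short, 1 call says nothing about the receptors as a set. Itgam encodes the alpha chain of complement receptor 3, through which microglia take up material tagged with C3 fragments. Its log2 level was 7.48, 7.09 and 7.31 in control mice and 7.61, 7.55 and 7.46 in FSS mice. FSS mice 1 and 2 lay above all control mice, while FSS mouse 3 fell just under control mouse 1. Its log2 fold change was 0.24 (standard error 0.10, limma p = 0.0454, exact permutation p = 0.2), and 0.14 without control mouse 2, where it was not called. Itgam was also not called without control mouse 3, FSS mouse 1 or FSS mouse 2, by the methods' t-test, with array weights or with the arrays split by their spread as a block. It lies below the median level of all rows. Calr and Lrp1, which encode calreticulin and its partner in the uptake of C1q-tagged cells, had log2 fold changes of 0.075 (standard error 0.043) and -0.0083 (standard error 0.041).

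Proteins with the same C1q domain but no place in the cascade act as organisers of synapses. Of 8 such genes, all measured, 1 was higher and none was lower, beside 2.49% and 2.66% of all rows. Without control mouse 1, 2 were higher and 1 lower, and 1 was also lower without control mouse 2, without FSS mouse 1, with an intensity trend and with the arrays split by their spread as a block. C1ql1, which encodes a secreted ligand of the receptor Bai3, had log2 levels of 9.23, 9.17 and 9.06 in control mice and 9.35, 9.39 and 9.39 in FSS mice. The cells it came from were not examined. The groups did not overlap (log2 fold change 0.23, standard error 0.054, limma p = 0.00415, adjusted p = 0.943, exact permutation p = 0.1), and C1ql1 was called with every mouse left out in turn, with log2 fold changes of 0.18 to 0.27. Its relatives C1ql2 and C1ql3 did not pass (log2 fold changes 0.090 and 0.025).

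**Figure D3:**
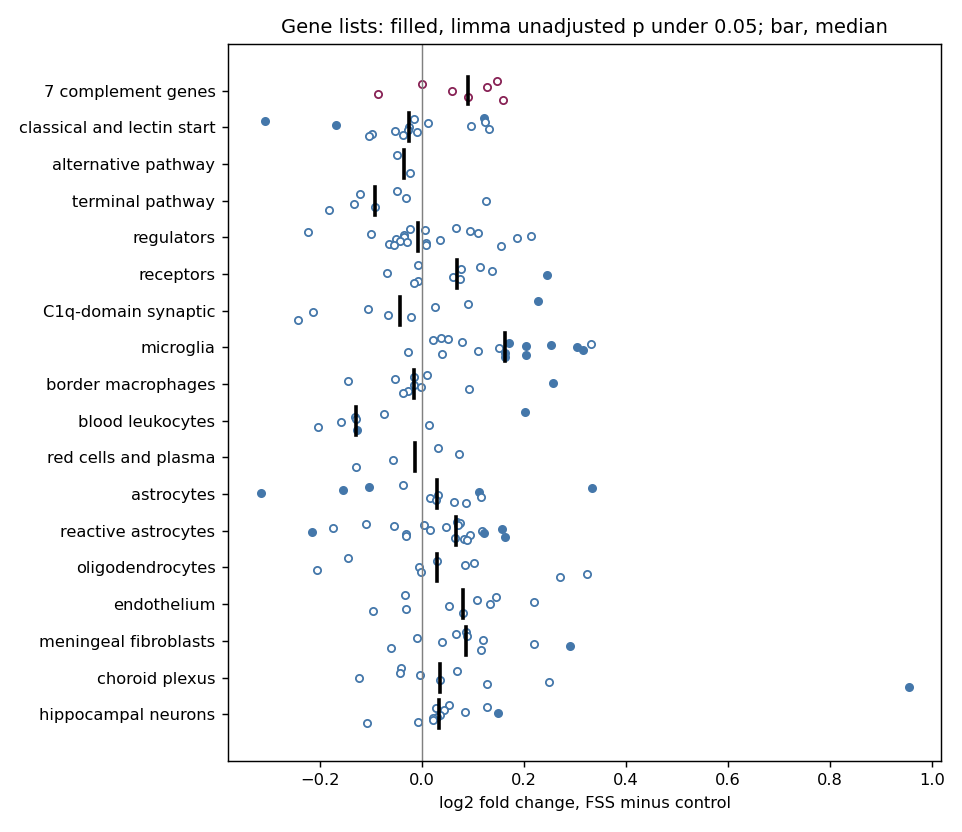
Difference of FSS from control in log2 level (x axis) for single measured genes of the 7 complement genes, the other complement lists and the cell type lists (y axis). Filled circles had a limma unadjusted p under 0.05 and black bars are list medians, which were 0.091 for the 7 complement genes and 0.16 for microglia markers; the point farthest to the right is Ttr.

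Since the C1q chains, C3ar1 and Itgam are microglial transcripts in the brain, the markers of microglia were set beside them. In whole tissue, fewer cells of a type and less RNA per cell cannot be told apart. Beside 2.49% of all rows called higher and 2.66% called lower, 8 of 17 measured microglia markers were called higher and none lower. The other 9 did not pass, and the median log2 fold change of the 17 markers was 0.16. The 3 with the smallest p were Gpr34 (log2 fold change 0.25), Trem2 (0.20), a receptor of microglia that binds lipids, and the purinergic receptor P2ry13 (0.32). Of these, Gpr34 lies below the median level of all rows. Leaving out control mouse 2 or FSS mouse 1 brought the number called to 5, and it was 4 by the methods' t-test. Over all rows, 826 were called without control mouse 2 and 808 without FSS mouse 1. The main fit called 1121 rows and the methods' t-test 1089. The mean log2 level of the 17 markers was 8.57, 8.41 and 8.51 in control mice and 8.68, 8.62 and 8.65 in FSS mice. All FSS mice lay above all control mice, and control mouse 2 was the lowest, as it was for C1qa, C1qc and Itgam. The part of this shift in the values of the complement genes was not tested.

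The mean log2 level of the 3 C1q chains was 9.23, 9.05 and 9.17 in control mice and 9.26, 9.22 and 9.25 in FSS mice, which is 0.091 higher on average and overlaps in control mouse 1. Within each mouse, the C1q mean minus the mean of the microglia markers was 0.66, 0.64 and 0.66 in control mice and 0.58, 0.60 and 0.60 in FSS mice. These groups did not overlap, and the difference of -0.060 on the log2 scale ranged from -0.067 to -0.053 without each mouse. It depended on how the markers were summarised, since with the median of the markers in place of their mean it was 0.030. No test was made, as this is a score over chosen genes.

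**Figure D4:**
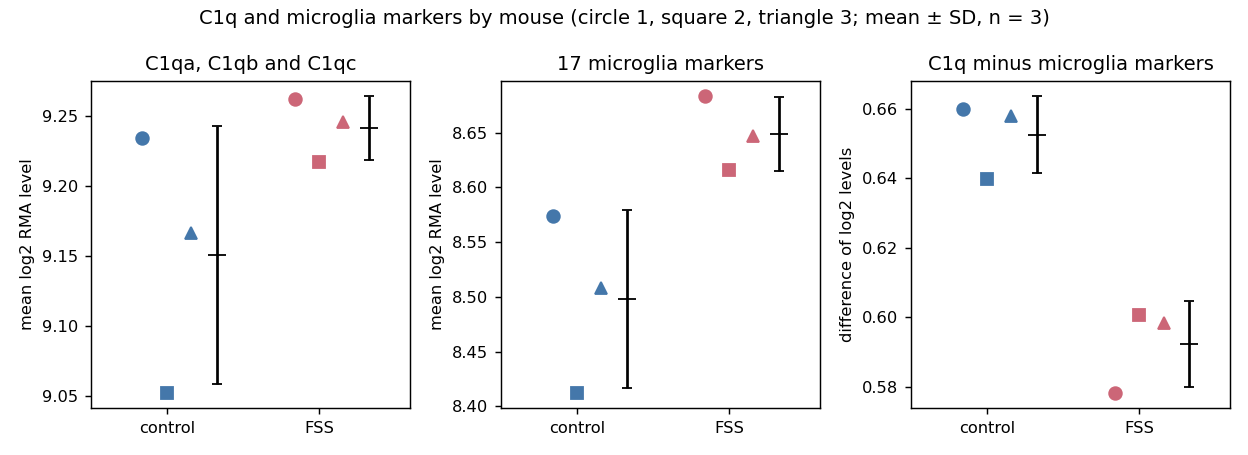
Mean log2 RMA level of C1qa, C1qb and C1qc (left), mean log2 RMA level of 17 microglia markers (middle) and their difference (right) in each mouse; the mean of each group is drawn with its SD over 3 mice, and the y axes differ. The microglia markers lay higher in all FSS mice than in all control mice, and the difference C1q minus markers lay lower, at 0.58 to 0.60 against 0.64 to 0.66.

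The lists of the other cell types are read beside the 2.49% of all rows called higher and 2.66% called lower. In lists this short, a single call says nothing about the list. Astrocyte markers went both ways (2 of 12 higher, 3 lower, median 0.029). Those with the smallest p were Aqp4 (log2 fold change 0.33), Gjb6 (-0.32) and Fgfr3 (-0.15). Of 20 reactive astrocyte genes, 3 were higher and 1 was lower (median 0.066). The reactive genes called were led by Srgn (log2 fold change 0.16), Gfap (0.16) and Lcn2 (-0.22). The marker of border macrophages that was called, F13a1, was higher (log2 fold change 0.26), with the other 9 not passing (list median -0.016). Of 8 blood leukocyte markers, Camp was higher (0.20) and S100a9 lower (-0.13), and none of the 4 red cell and plasma genes passed. None of 9 oligodendrocyte markers (median 0.029) and 9 endothelial markers (median 0.080) passed. Among 10 meningeal markers 1 was higher (Lum, 0.29, list median 0.087) and among 9 choroid plexus markers 1 (Ttr, 0.95, list median 0.036). Among 12 hippocampal neuron markers 1 was higher (Prox1, 0.15, list median 0.032). Of the genes named in this paragraph, Lcn2, F13a1, Camp, S100a9 and Lum lie below the median level of all rows.

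The profile of C1q over the 6 mice, as the mean deviation of its chains from their own means, was lowest in control mouse 2 (-0.14) and highest in FSS mouse 1 (0.066). Among 9852 genes above the median level, the 5 whose deviations were most like it were Caprin1, Fam13c, Pcdhb15, Gpc4 and Dock10, with root mean square differences of 0.011 to 0.014 on the log2 scale. C1qc itself differed from the mean of the chains by 0.033, C1qa by 0.059 and C1qb by 0.062. With 6 mice and so many genes, a close match of this size is to be read as a description only.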

How the data were processed

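Hippocampal RNA of 3 control and 3 FSS mice was labeled and hybridised to arrays of the Mouse Gene 1.0 ST type (Affymetrix). The authors deposited log2 levels that they made by RMA (background correction, quantile normalization and a summary of the probes of each row), and the submitters' processing notes name Affymetrix Expression Console and RMA. The quantile step of RMA sets the probe values of arrays processed together to 1 distribution, so a shift common to all genes cannot be seen. The deposited row levels still differed slightly in spread between arrays (SD 2.22 to 2.27), and why was not tested.

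Of 28944 rows, 21789 carry 1 gene symbol by the platform annotation, 1621 several and 5534 none. Gene IDs matched to RefSeq (GRCm38.p6) changed 0 symbols. RefSeq otherwise served to find neighbouring genes. FSS minus control was fitted over the 21789 rows with limma 3.58.1 (lmFit and eBayes, R 4.3.3), two-sided, with no covariate and Benjamini-Hochberg adjustment over all rows. Per symbol, the row with the highest mean was kept (19938 genes). Exact permutation tests were over the mice. The fit was first run on simulated data with known answers. The complement genes and all lists were chosen with earlier results of these data known. Genes were named by a rule: the complement genes, other complement genes with p under 0.05 or among the 2 highest in level of their list, at most 3 with the smallest p of each other list, and the 5 closest profiles to C1q. C1ql2 and C1ql3, beside C1ql1, C1s2, beside C1s1, and Cr1l were named outside it. The alternatives were 16 other settings of test, variance, normalization, filter, block or omitted mouse.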

Additional observations from a re-analysis of the deposited data

How the results depend on the processing

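Of 110 values of the 7 complement genes under the alternatives, 99 kept their direction and their side of the threshold, 6 came to pass it and 5 changed sign, all of C1qb. The log2 fold change of C1qb was 0.0043 with array weights, 0.0020 with median centring and -0.027 to 0.023 without each mouse. The number of complement genes called higher was 1 with an intensity trend (C1qc) and 1 with rows above the median level (C1qc), and 0 to 2 without each mouse, whereas 0 to 1 were called lower there. Of the other complement genes, the number higher was 4 with an intensity trend, 0 with rows above the median level and 1 to 3 without each mouse. The number lower was 1 by the methods' t-test, 1 with an intensity trend, 1 with quantile normalization, 0 with rows above the median level and 0 to 5 without each mouse (5 without control mouse 1, 4 without control mouse 2 and 0 without FSS mouse 1). Of the 120 cell type markers, 18 were higher (12 to 22 without each mouse) and 5 lower, beside 2.49% and 2.66% of all rows. The number of all rows called moved too, from 1121 in the main fit to 808 to 1656 without each mouse. The number of these markers lower was 1 by the methods' t-test, 3 with rows above the median level, 2 with the arrays split by their spread as a block and 1 to 7 without each mouse. C1q relative to microglia markers turned from -0.060 to 0.030 with the median of the markers. At the thresholds of the methods, 0 complement genes were called under any setting, and the methods' t-test called 8 of all rows, against 15 by limma, with 0 after adjustment in both. C1qc minus C1qb, whose alternatives were chosen after seeing the data, was 0.091 to 0.15 without each mouse.

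The labels name no pairs, so the replicate numbers were not taken as pairs. The deviations of same-numbered mice correlated at -0.048, 0.14 and 0.24. Control mouse 1 correlated best with FSS mouse 2, whereas control mice 2 and 3 correlated best with the FSS mouse of the same number. With the replicate block, 1494 rows passed in place of 1121, 0 complement genes were higher and 0 lower, 3 of the other complement genes were higher and 3 lower, and 21 cell type markers were higher and 6 lower. With 3 arrays a group, the intervals given bound each difference only loosely. The setting with rows above the median level gives no value for C3ar1 and C5ar1, which lie below it. Of the 54 other complement genes it holds 16. C1ra, C1s1, C4a and Itgam lie below the median and were removed before that fit, so its counts of 0 say nothing about them.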
